A study of Mus musculus with 8 samples.

Results

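The amino acid transporters described here are the members of 7 solute carrier families, Slc1, Slc3, Slc6, Slc7, Slc36, Slc38 and Slc43. They were chosen by gene symbol: every symbol made of one of these family names, the letter a and a number, except Slc7a11. This gave 59 members among 35963 gene symbols. RNA had been sequenced from epithelial cells that a buffer released from the proximal colon of mice aged 4 weeks. The 4 libraries labelled Ccna2-KO came from Ccna2 fl/fl mice carrying vil-Cre, in which the villin promoter drives Cre recombinase in intestinal epithelium. The 4 WT libraries came from control mice that were also Ccna2 fl/fl and carried no Cre, so the floxed alleles were common to all 8 libraries. The labels do not say that each library was a separate mouse, and p-values therefore measure the spread between these libraries.

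Epithelial cells take up and release amino acids through carriers that differ in substrate and in the membrane they occupy. Carriers of the apical brush border couple uptake to ions or exchange amino acids, while basolateral exchangers and uniporters pass amino acids on to the blood. Members of the Slc3 family are heavy chains: each pairs with light chains of the Slc7 family and brings them to the surface, Slc3a1 (rBAT) at the brush border and Slc3a2 (4F2hc) mainly on the basolateral side. Uptake of most free amino acids from the gut lumen is a task of the small intestine, whereas the colonic epithelium is known for the broad carrier Slc6a14.

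Each library held 27162083 to 34386731 estimated counts. Ccna2 itself overlapped between the groups, at 16.2 to 26.6 CPM (counts scaled to library size) in libraries labelled Ccna2-KO and 11.9 to 54.2 CPM in WT libraries (log2 fold change -0.33 ± 0.41 SE, edgeR adjusted p = 0.673), so every direction given here rests on the labels. Epcam, which marks epithelium, averaged 1928 ± 107 CPM in libraries labelled Ccna2-KO and 1884 ± 86.8 CPM in WT libraries (SD, n = 4 each), and Cdh1, Krt8, Vil1 and Cdx2 were present in all 8 libraries. WT replicate 1 stood apart from the other WT libraries: 1924 genes passed in all, and 4627 without it. The library numbers in the labels also fall into a low set (3 WT libraries and Ccna2-KO replicate 4) and a high set (WT replicate 1 with Ccna2-KO replicates 1, 2 and 3). Results are therefore also given without WT replicate 1 and with a term for this number set in the fit, which cannot fully part the set from genotype.

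Most members did not pass the test, and those that did were nearly all higher in libraries labelled Ccna2-KO. Of the 59 members, 38 had enough counts to be tested with edgeR's quasi-likelihood test, with p-values adjusted over all 15893 genes tested and a threshold of 0.05. Of these, 7 rose (18.4%), against 6.4% of all genes tested, and 1 fell (2.63%), against 5.71% of all genes tested. The members that rose were Slc7a9, Slc7a15, Slc6a19, Slc43a2, Slc7a7, Slc38a3 and Slc1a4, and the member that fell was Slc6a6. The other 30 tested members did not pass, with log2 fold changes between -0.82 and 0.99. Fold changes were positive for 19 members and negative for 19, and their median was 0.04, beside -0.01 over all genes tested.

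**Figure D1:**
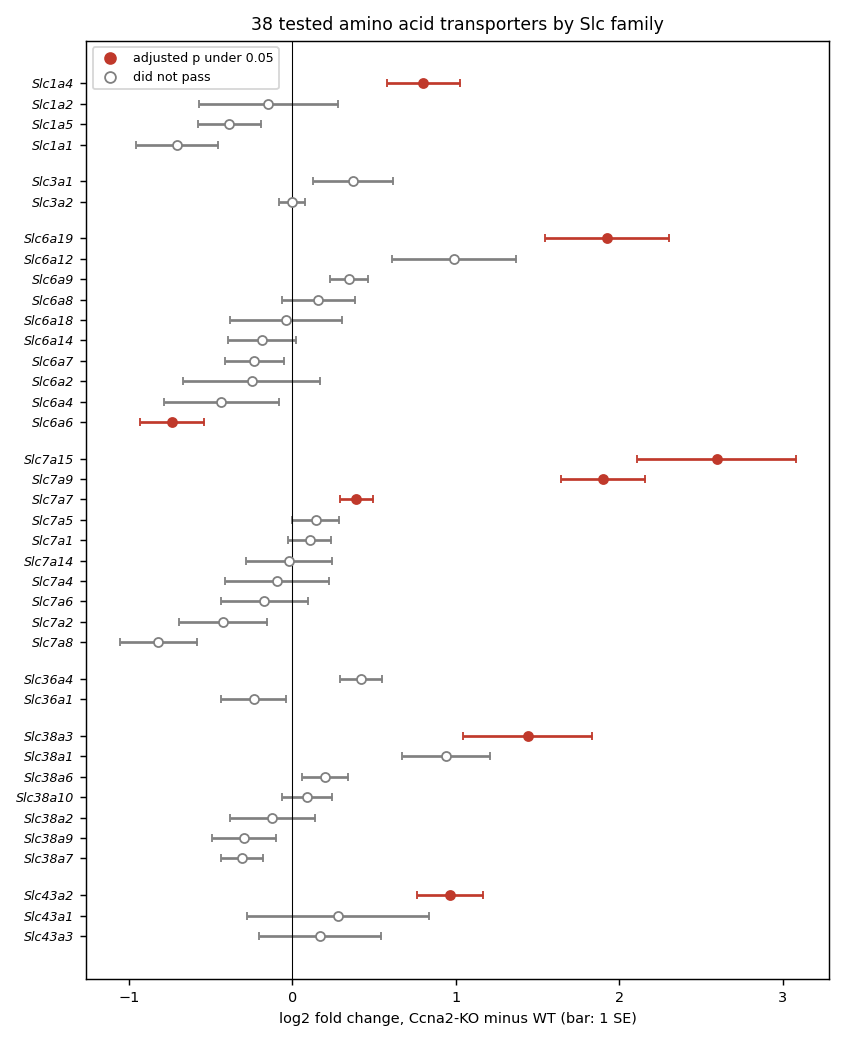
Log2 fold change of each of the 38 tested amino acid transporters, libraries labelled Ccna2-KO over WT libraries (horizontal axis; bar, 1 SE), grouped by Slc family. Filled points passed an adjusted p of 0.05 in edgeR and open points did not: 7 filled points lie right of 0 and 1, Slc6a6, lies left of it.

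The groups of 4 libraries did not overlap for 8 tested members higher and 3 lower in libraries labelled Ccna2-KO, against 9.45% and 9.6% of all genes tested. With the number set term, 8 members were called higher and 2 lower, against 9.29% and 8.9% of all genes tested, and 6 of the 8 passing members still passed. Without WT replicate 1, 9 members were called higher and 2 lower, against 15.1% and 13.4% of all genes tested, and 7 of the 8 still passed. The count of members called higher was 4 without Ccna2-KO replicate 1, 2 or 3 or WT replicate 2, each left out in turn. Calls over all genes were also fewer in these fits, at 1116, 1031, 972 and 1249, against 1924 with all libraries. In all 18 other ways of processing the data, Slc7a9, Slc7a15 and Slc43a2 passed, and none of the 8 passing members changed sign.

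**Figure D2:**
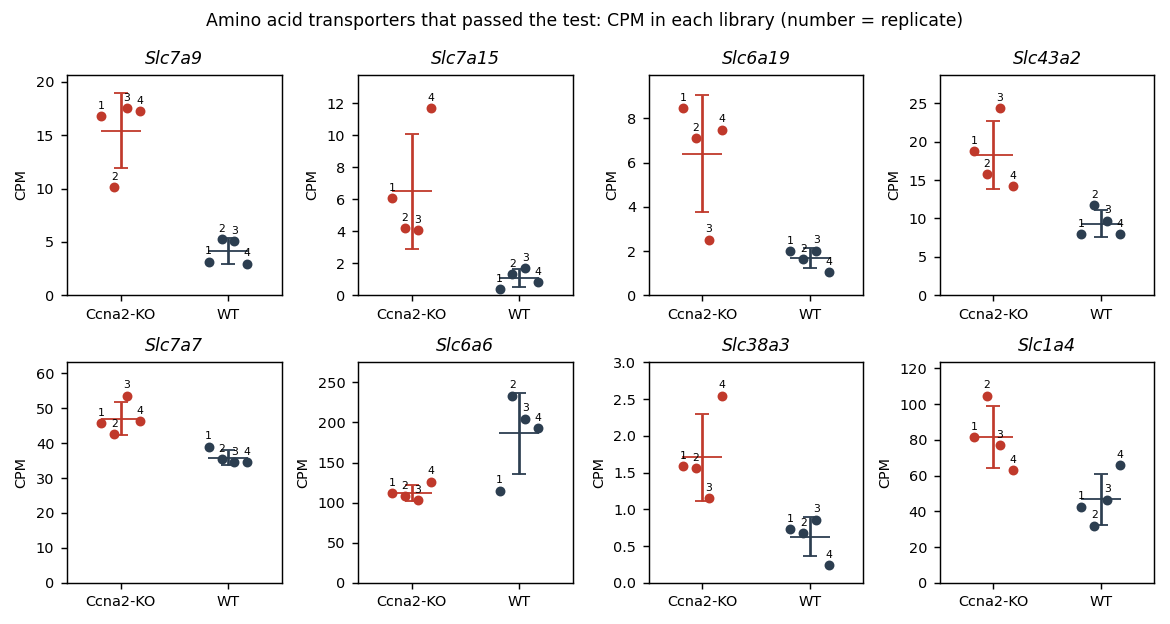
CPM (counts scaled to library size, vertical axes from 0) of the 8 passing amino acid transporters in the 4 libraries labelled Ccna2-KO (left in each panel) and the 4 WT libraries (right). Points are libraries with their replicate numbers, and bars are the mean and SD (n = 4). The groups are apart for Slc7a9, Slc7a15, Slc6a19, Slc43a2, Slc7a7 and Slc38a3, and overlap for Slc6a6 through WT replicate 1 and for Slc1a4 through WT replicate 4.

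The widest differences among passing members were in Slc7a15, Slc6a19 and Slc7a9, of which Slc6a19 and Slc7a9 are carriers of the brush border. Slc7a9 (chromosome 7, 35448727 to 35466034; positions of genes are those of GRCm38) encodes the light chain that pairs with Slc3a1 to take up cystine and cationic amino acids. In order of replicate number, it stood at 16.8, 10.2, 17.5 and 17.2 CPM in libraries labelled Ccna2-KO, against 3.17, 5.27, 5.10 and 2.97 CPM in WT libraries. All 4 libraries labelled Ccna2-KO lay above every WT library, and Ccna2-KO replicate 2 was the lowest of its group. Slc7a9 rose (log2 fold change 1.90 ± 0.26 SE, edgeR adjusted p = 0.00233), with 2.08 ± 0.27, adjusted p = 0.00120 under the number set term.

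Slc7a15 (chromosome 12, 8528481 to 8599066) encodes a light chain known in mice, where it transports aromatic and other neutral amino acids. It measured 6.07, 4.20, 4.06 and 11.7 CPM in libraries labelled Ccna2-KO, against 0.418, 1.32, 1.72 and 0.818 CPM in WT libraries. The lowest library labelled Ccna2-KO was above the highest WT library, and Ccna2-KO replicate 4 was the highest of all. Slc7a15 rose (log2 fold change 2.60 ± 0.48 SE, edgeR adjusted p = 0.00946), and the log2 fold change was larger under the number set term (3.30 ± 0.30, adjusted p = 0.000224).

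Slc6a19 (chromosome 13, 73679745 to 73700780) encodes the main sodium-coupled carrier of neutral amino acids in the small intestinal brush border. Its level was 8.46, 7.11, 2.53 and 7.49 CPM in libraries labelled Ccna2-KO, against 1.99, 1.64, 2.03 and 1.06 CPM in WT libraries. Ccna2-KO replicate 3 was close to the WT range and the rest of its group lay well above it. Slc6a19 rose (log2 fold change 1.93 ± 0.38 SE, edgeR adjusted p = 0.0120), and the number set term gave 1.94 ± 0.41, adjusted p = 0.0134. The call was lost with the replicate number as a block (1.85 ± 0.42, adjusted p = 0.0509). Its relative Slc6a18 (chromosome 13, 73661750 to 73678023), which lies beside it and is known mainly from the kidney, stayed low at 0.342 ± 0.112 CPM in libraries labelled Ccna2-KO and 0.353 ± 0.0803 CPM in WT libraries (SD, n = 4 each), with a log2 fold change of -0.04 ± 0.34 (adjusted p = 0.962).

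Slc3a1, the heavy chain that pairs with Slc7a9, did not pass the test. Slc3a1 stood at 139, 109, 107 and 137 CPM in libraries labelled Ccna2-KO, against 51.5, 125, 113 and 90.7 CPM in WT libraries. WT replicate 1 was far below the other 7 libraries, among which the groups overlapped. The log2 fold change of Slc3a1 was 0.37 ± 0.24 (adjusted p = 0.379), but 0.76 ± 0.22, adjusted p = 0.0410 under the number set term, so its call depended on that term. The ratio of light to heavy chain is given as a description chosen after the values were seen. Slc7a9 CPM over Slc3a1 CPM came to 12.04, 9.28, 16.4 and 12.6% in libraries labelled Ccna2-KO, against 6.15, 4.21, 4.52 and 3.27% in WT libraries. Slc7a15 CPM over Slc3a1 CPM came to 4.35, 3.83, 3.80 and 8.56% in libraries labelled Ccna2-KO, against 0.811, 1.05, 1.53 and 0.902% in WT libraries. In both ratios the groups did not overlap, as they did not for Slc7a9 and Slc7a15 alone.

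Markers of small intestinal enterocytes moved in the same libraries. In a list of 20 such genes, written with earlier results of these data known, 7 of 16 tested were higher and 1 lower. The list holds no transporter of the 7 families, and its median log2 fold change was 0.87. Among all genes tested, 6.4% were higher and 5.71% lower. The gene with the largest fold change was Sis, sucrase-isomaltase, at 34.95 ± 6.77 CPM in libraries labelled Ccna2-KO and 5.97 ± 2.76 CPM in WT libraries (SD, n = 4 each; log2 fold change 2.55 ± 0.32 SE, edgeR adjusted p = 0.00184). The lower gene was Xpnpep2 (log2 fold change -0.88 ± 0.25 SE, edgeR adjusted p = 0.0480). Its call was lost under the number set term (adjusted p = 0.0986). The list summed to 1476 to 1866 CPM in libraries labelled Ccna2-KO and 1170 to 1534 CPM in WT libraries, and no gene of it was at 0 in all libraries. Its part in the rise of Slc7a9, Slc7a15 and Slc6a19 was not tested. Among other carriers, Slc6a20a and Slc15a1 fell (log2 fold changes -2.27 ± 0.30 and -1.05 ± 0.29 SE), as given further on. In bulk RNA, more cells of a type and more RNA per cell cannot be told apart.

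Among Slc7a5, Slc7a6, Slc7a7 and Slc7a8, light chains of Slc3a2, Slc7a7 alone passed, by a small margin. Slc7a7 (chromosome 14, 54369442 to 54420068) encodes the basolateral exchanger that releases cationic amino acids in return for neutral ones and sodium. It stood at 45.7, 42.5, 53.7 and 46.3 CPM in libraries labelled Ccna2-KO, against 39.0, 35.4, 34.5 and 34.6 CPM in WT libraries. The groups did not overlap, although the gap between Ccna2-KO replicate 2 and WT replicate 1 was narrow. Slc7a7 rose (log2 fold change 0.39 ± 0.10 SE, edgeR adjusted p = 0.0342). The call was lost with no filter on low counts (adjusted p = 0.0690), with the replicate block (adjusted p = 0.124) and without Ccna2-KO replicate 1, 2, 3 or 4 or WT replicate 2, 3 or 4 in turn (adjusted p 0.0520 to 0.103).

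Slc7a8, which encodes a basolateral exchanger of neutral amino acids, pointed the other way and missed the threshold. It measured 3.94, 2.88, 3.64 and 2.75 CPM in libraries labelled Ccna2-KO, against 5.89, 8.02, 5.15 and 4.26 CPM in WT libraries. Every WT library was above every library labelled Ccna2-KO. Its log2 fold change was -0.82 ± 0.23 (adjusted p = 0.0509). Slc7a8 passed in 6 of 18 other ways of processing. The adjusted p was 0.0394 with the number set term, 0.00800 in DESeq2, 0.0493 with the 1 CPM filter and 0.0499 with non-robust estimates. It was 0.0333 without WT replicate 1 and 0.0474 without WT replicate 4. Leaving out single libraries gave an adjusted p of up to 0.144.

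The heavy chain and the other light chains did not pass. Slc3a2 stood at 68.1, 62.4, 67.1 and 64.6 CPM in libraries labelled Ccna2-KO, against 67.1, 68.5, 65.2 and 61.7 CPM in WT libraries. Its 8 values were the most even of the transporters shown by library, with a log2 fold change of -0.00 ± 0.08 (adjusted p = 0.991) that took either sign with the scaling. Slc7a5, a large neutral amino acid exchanger, measured 16.7, 21.6, 18.8 and 14.3 CPM in libraries labelled Ccna2-KO, against 15.6, 15.8, 14.9 and 18.4 CPM in WT libraries, and the groups overlapped (log2 fold change 0.14 ± 0.15 SE, adjusted p = 0.594). Slc7a6, a relative of Slc7a7, gave a log2 fold change of -0.17 ± 0.27 (adjusted p = 0.745). Slc7a7 CPM over Slc3a2 CPM came to 67.1, 68.2, 79.98 and 71.7% in libraries labelled Ccna2-KO, against 58.2, 51.6, 52.9 and 56.1% in WT libraries. Slc7a8 CPM over Slc3a2 CPM came to 5.79, 4.61, 5.42 and 4.25% in libraries labelled Ccna2-KO, against 8.77, 11.7, 7.90 and 6.91% in WT libraries. The groups did not overlap in these ratios, also chosen after the values were seen. They overlapped for Slc7a5 over Slc3a2, at 22.1 to 34.7% in libraries labelled Ccna2-KO and 22.9 to 29.8% in WT libraries, and for Slc7a6 over Slc3a2, at 6.91 to 18.3% in libraries labelled Ccna2-KO and 11.4 to 18.1% in WT libraries.

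No single transcript of Slc7a7 passed when tested alone. Of its 11 annotated transcripts, 9 could be tested. NM_001253680.1 measured 8.29, 9.63, 10.2 and 9.22 CPM in libraries labelled Ccna2-KO, against 2.92, 3.74, 4.20 and 0.940 CPM in WT libraries, and the groups did not overlap (log2 fold change 1.68 ± 0.42 SE, edgeR adjusted p = 0.138). The groups were also apart for XM_006518752.1 (log2 fold change 3.31 ± 1.31 SE, edgeR adjusted p = 0.379) and XM_006518755.3 (0.76 ± 0.24, adjusted p = 0.230). XM_006518748.2, XM_006518751.2, XM_006518753.1 and XM_011245000.2 pointed lower, with log2 fold changes from -1.48 to -0.43. The most abundant transcript, XM_006518754.3, showed a log2 fold change of 0.10 ± 0.15 SE. Reads shared by transcripts of a gene are divided between them by estimation, so these values are less certain than the gene's sum.

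Slc43a2 (chromosome 11, 75529915 to 75577575), which encodes a basolateral uniporter of large neutral amino acids, passed in all 18 other ways of processing. It stood at 18.8, 15.7, 24.3 and 14.2 CPM in libraries labelled Ccna2-KO, against 7.97, 11.7, 9.73 and 7.99 CPM in WT libraries. The groups did not overlap, and Ccna2-KO replicate 3 was the highest. Slc43a2 rose (log2 fold change 0.97 ± 0.20 SE, edgeR adjusted p = 0.0150), with 0.91 ± 0.24, adjusted p = 0.0266 under the number set term. Its relative Slc43a1 gave a log2 fold change of 0.28 ± 0.56 (adjusted p = 0.807), which without WT replicate 1 was 1.12, adjusted p = 0.0477 and under the number set term -0.46. Slc43a3, whose product is known to carry purine bases, gave a log2 fold change of 0.17 ± 0.37 (adjusted p = 0.826).

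In the Slc1 family, the 3 best measured members pointed different ways. Slc1a4 (chromosome 11, 20302180 to 20332713) encodes an exchanger of alanine, serine, cysteine and threonine. It measured 81.5, 105, 76.9 and 63.0 CPM in libraries labelled Ccna2-KO, against 42.6, 32.0, 46.6 and 65.9 CPM in WT libraries. WT replicate 4 was above Ccna2-KO replicate 4, and the other libraries of the groups were apart. Slc1a4 rose (log2 fold change 0.80 ± 0.22 SE, edgeR adjusted p = 0.0466). The call was lost with the number set term (0.71 ± 0.28, adjusted p = 0.111), with upper quartile scaling (adjusted p = 0.0503), with the replicate block (adjusted p = 0.127) and without Ccna2-KO replicate 1, 2 or 3 or WT replicate 1, 2 or 3 in turn (adjusted p 0.0539 to 0.130).

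Slc1a5, a neutral amino acid exchanger known for glutamine uptake, stood at 126, 140.4, 116 and 98.1 CPM in libraries labelled Ccna2-KO, against 215, 114, 143 and 155 CPM in WT libraries. The groups overlapped and WT replicate 1 was the highest library. The log2 fold change of Slc1a5 was -0.38 ± 0.19 (adjusted p = 0.244), and -0.62 ± 0.13, adjusted p = 0.0116 under the number set term. Slc1a1, a glutamate and cysteine carrier of the apical membrane, measured 14.5, 8.75, 13.2 and 18.5 CPM in libraries labelled Ccna2-KO, against 32.0, 19.4, 19.3 and 18.8 CPM in WT libraries. All WT libraries were above those labelled Ccna2-KO, the nearest pair by little, and the log2 fold change was -0.71 ± 0.25 (adjusted p = 0.104), with an adjusted p of 0.0491 in DESeq2. Slc1a2, a glutamate carrier known from glia, did not pass (log2 fold change -0.15 ± 0.42 SE, adjusted p = 0.874). Cell division markers moved as well: 9 of 24 tested passed as higher and 0 as lower, against 6.4% higher and 5.71% lower among all genes tested. With the number set term 13 were higher and 0 lower, against 9.29% and 8.9% of all genes tested. Without WT replicate 1, 24 were higher and 0 lower, against 15.1% and 13.4% of all genes tested. The list summed to 1194, 1503, 1528 and 1006 CPM in libraries labelled Ccna2-KO, against 1069, 513, 454 and 487 CPM in WT libraries. Their part in the Slc1 values was not tested.

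Promoters of passing members are shown because 2 of them share a motif at an annotated start. TGATGNAA, where N is any base, is the core of the element bound by the stress factor ATF4 with a C/EBP partner. It was searched on both strands in RefSeq windows of 300 bases (GRCm38.p6), 250 before and 50 after each start. The motif occurred in 3.97% of 32851 windows and in 4.51% of 27025 genes. Of the members, 41 had a window and 2 held the motif, a share near that of all genes. These were Slc1a4 and Slc7a7, both among the 6 members that rose and had a window. Both lost their call in some other ways of processing. The stretches below run from 150 bases before to 10 after the start, 5′ to 3′ on the strand of the gene, with matches in capitals. Slc7a9, which has no match in its windows, is shown beside them.
Slc1a4 (chr11:20332704-20332863, minus strand): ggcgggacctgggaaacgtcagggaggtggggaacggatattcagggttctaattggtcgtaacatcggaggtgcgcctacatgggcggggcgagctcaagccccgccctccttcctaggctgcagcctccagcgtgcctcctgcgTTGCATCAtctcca
Slc7a7 (chr14:54417935-54418094, minus strand): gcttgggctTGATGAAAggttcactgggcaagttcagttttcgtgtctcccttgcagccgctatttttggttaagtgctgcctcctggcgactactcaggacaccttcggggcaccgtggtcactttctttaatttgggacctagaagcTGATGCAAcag
Slc7a9 (chr7:35448942-35449101, plus strand): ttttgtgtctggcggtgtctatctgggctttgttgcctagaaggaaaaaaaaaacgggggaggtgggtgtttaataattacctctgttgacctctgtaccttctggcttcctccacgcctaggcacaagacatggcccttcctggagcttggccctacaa

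The Slc1a4 match lay on the other strand and began at position -4 from the start. The Slc7a7 window shown held matches at positions -141 and -1, and the windows of its other 4 annotated starts held none. The E-box CACGTG, bound by MYC and TFEB among others, was searched in the same way. It occurred in 7.15% of windows and 8.09% of genes, in 9 of the 41 members and in 0 of the 6 members that rose. No window of a member held both motifs. A match is only a run of letters and says nothing of binding.

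Slc38 carriers couple neutral amino acids to sodium, and 1 of 7 tested passed. Slc38a3 (chromosome 9, 107651154 to 107668968), a glutamine and histidine carrier known from liver and kidney, was low throughout at 1.58, 1.56, 1.15 and 2.55 CPM in libraries labelled Ccna2-KO, against 0.732, 0.678, 0.861 and 0.242 CPM in WT libraries. The groups did not overlap. Slc38a3 rose (log2 fold change 1.44 ± 0.39 SE, edgeR adjusted p = 0.0434), on sums of 201 counts in libraries labelled Ccna2-KO and 74 counts in WT libraries. The number set term gave 1.58 ± 0.41, adjusted p = 0.0259, and the call was lost with the replicate block (adjusted p = 0.143) and without Ccna2-KO replicate 1, 2, 3 or 4 or WT replicate 2, 3 or 4 in turn (adjusted p 0.0603 to 0.0938).

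Slc38a1 and Slc38a2 lie next to each other (chromosome 15, 96571418 to 96643438 and 96687392 to 96699728) and encode related carriers of glutamine and alanine. Slc38a1 stood at 94.2, 71.4, 129 and 58.4 CPM in libraries labelled Ccna2-KO, against 32.6, 37.8, 60.1 and 53.2 CPM in WT libraries. Ccna2-KO replicate 4 lay below WT replicate 3, and the rest of its group was above all WT libraries. The log2 fold change of Slc38a1 was 0.94 ± 0.27 (adjusted p = 0.0516). Slc38a1 passed in 3 of 18 other ways of processing. The adjusted p was 0.0334 without Ccna2-KO replicate 4, 0.0499 with non-robust estimates and 0.00832 in DESeq2. Slc38a1 did not pass with the number set term (adjusted p = 0.145) or without WT replicate 1 (adjusted p = 0.0637). Slc38a2 measured 289.7, 336, 266 and 487 CPM in libraries labelled Ccna2-KO, against 213, 416, 431 and 440.2 CPM in WT libraries. Its groups overlapped widely, with a log2 fold change of -0.12 ± 0.26 (adjusted p = 0.823) that was 0.33 under the number set term.

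The remaining 4 tested Slc38 members did not pass. Slc38a9 encodes a lysosomal carrier that reports arginine to the growth kinase mTORC1 and showed a log2 fold change of -0.29 ± 0.19 (adjusted p = 0.380). Slc38a7, a lysosomal glutamine carrier, gave a log2 fold change of -0.31 ± 0.13 (adjusted p = 0.165) with groups that did not overlap. For Slc38a6 the log2 fold change was 0.20 ± 0.14 (adjusted p = 0.407) and for Slc38a10 it was 0.09 ± 0.15 (adjusted p = 0.766). Without WT replicate 1, that of Slc38a10 was 0.27, adjusted p = 0.0199.

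Slc6a6 was the member that fell. Slc6a6 (chromosome 6, 91684048 to 91759063) encodes the sodium- and chloride-coupled carrier of taurine. It stood at 112, 108, 103 and 126 CPM in libraries labelled Ccna2-KO, against 115, 234, 205 and 193 CPM in WT libraries. WT replicate 1 lay within the range of the libraries labelled Ccna2-KO, and the other 3 WT libraries were far above it. Slc6a6 fell (log2 fold change -0.73 ± 0.20 SE, edgeR adjusted p = 0.0399). Without WT replicate 1 the log2 fold change was -0.91, adjusted p = 0.000325. The call was lost with the number set term (-0.42 ± 0.15, adjusted p = 0.0777), in limma voom (adjusted p = 0.0540), with the replicate block (adjusted p = 0.0937) and without Ccna2-KO replicate 1, 2, 3 or 4 or WT replicate 2, 3 or 4 in turn (adjusted p 0.0561 to 0.115). Of the markers of T cells, 15 of 15 tested were lower, against 5.71% of all genes tested. With the number set term 12 were lower, against 8.9% of all genes tested. The markers summed to 27.1, 15.1, 19.4 and 29.4 CPM in libraries labelled Ccna2-KO, against 47.8, 215, 163 and 89.2 CPM in WT libraries. No gene of the list was at 0 in all libraries. The part of these markers in the Slc6a6 result was not tested.

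The carriers with the most counts did not pass. Slc6a14, which takes up neutral and cationic amino acids at the apical membrane of the colon, measured 915, 652, 847 and 945 CPM in libraries labelled Ccna2-KO, against 670.4, 1153, 1202 and 789 CPM in WT libraries. WT libraries held both the highest values and the second lowest, and the log2 fold change was -0.18 ± 0.21 (adjusted p = 0.641). Slc6a8, the creatine carrier, stood at 331, 291, 302 and 492 CPM in libraries labelled Ccna2-KO, against 335, 332, 391 and 210.4 CPM in WT libraries. Ccna2-KO replicate 4 was the highest library and WT replicate 4 the lowest, and the log2 fold change was 0.16 ± 0.22 (adjusted p = 0.713).

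Other Slc6 members also carry transmitters. Slc6a4, the serotonin carrier, measured 11.6, 8.58, 8.05 and 7.22 CPM in libraries labelled Ccna2-KO, against 20.9, 7.90, 12.8 and 6.24 CPM in WT libraries, with overlapping groups (log2 fold change -0.43 ± 0.35 SE, adjusted p = 0.488). Slc6a9, a glycine carrier, was higher in every library labelled Ccna2-KO than in any WT library, at 28.2 ± 3.43 CPM in libraries labelled Ccna2-KO and 22.2 ± 1.95 CPM in WT libraries (SD, n = 4 each). It did not pass in edgeR (log2 fold change 0.35 ± 0.12 SE, adjusted p = 0.0928) and had an adjusted p of 0.0486 in DESeq2. Slc6a12, a carrier of betaine and GABA, gave a log2 fold change of 0.99 ± 0.38 (adjusted p = 0.130). Without Ccna2-KO replicate 4 it was 1.22, adjusted p = 0.0426. Neither Slc6a7, a proline carrier (log2 fold change -0.23 ± 0.18 SE, adjusted p = 0.476), nor Slc6a2, the noradrenaline carrier (log2 fold change -0.25 ± 0.42 SE, adjusted p = 0.768), passed. Enteroendocrine markers, whose cells make serotonin, were 2 higher and 8 lower of 25 tested, against 6.4% higher and 5.71% lower among all genes tested. They summed to 131 to 194 CPM in libraries labelled Ccna2-KO and 221 to 376 CPM in WT libraries. Their part in the Slc6a4 values was not tested.

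The tested Slc36 carriers and Slc7a1, Slc7a2, Slc7a4 and Slc7a14 did not pass. Slc36a1, which carries glycine and proline with protons, stood at 33.4, 30.3, 29.3 and 34.3 CPM in libraries labelled Ccna2-KO, against 56.1, 33.4, 29.5 and 30.7 CPM in WT libraries. WT replicate 1 was far above the other 7 libraries, and the log2 fold change was -0.24 ± 0.20 (adjusted p = 0.513). Slc36a4, a relative carrying proline and tryptophan, measured 23.8, 24.4, 21.0 and 21.3 CPM in libraries labelled Ccna2-KO, against 14.1, 15.96, 20.3 and 17.1 CPM in WT libraries, and the groups did not overlap. Its log2 fold change was 0.42 ± 0.13 (adjusted p = 0.0676). Slc36a4 passed in 4 of 18 other ways of processing. The adjusted p was 0.0480 under the number set term, 0.0220 in DESeq2, 0.0450 without WT replicate 1 and 0.0435 without WT replicate 3. Leaving out single libraries gave an adjusted p of up to 0.176. The arginine and lysine carriers had log2 fold changes of 0.11 ± 0.13 (adjusted p = 0.672) for Slc7a1 and -0.42 ± 0.27 (adjusted p = 0.365) for Slc7a2. Their relatives had log2 fold changes of -0.09 ± 0.32 (adjusted p = 0.896) for Slc7a4 and -0.02 ± 0.26 (adjusted p = 0.984) for Slc7a14.

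**Figure D3:**
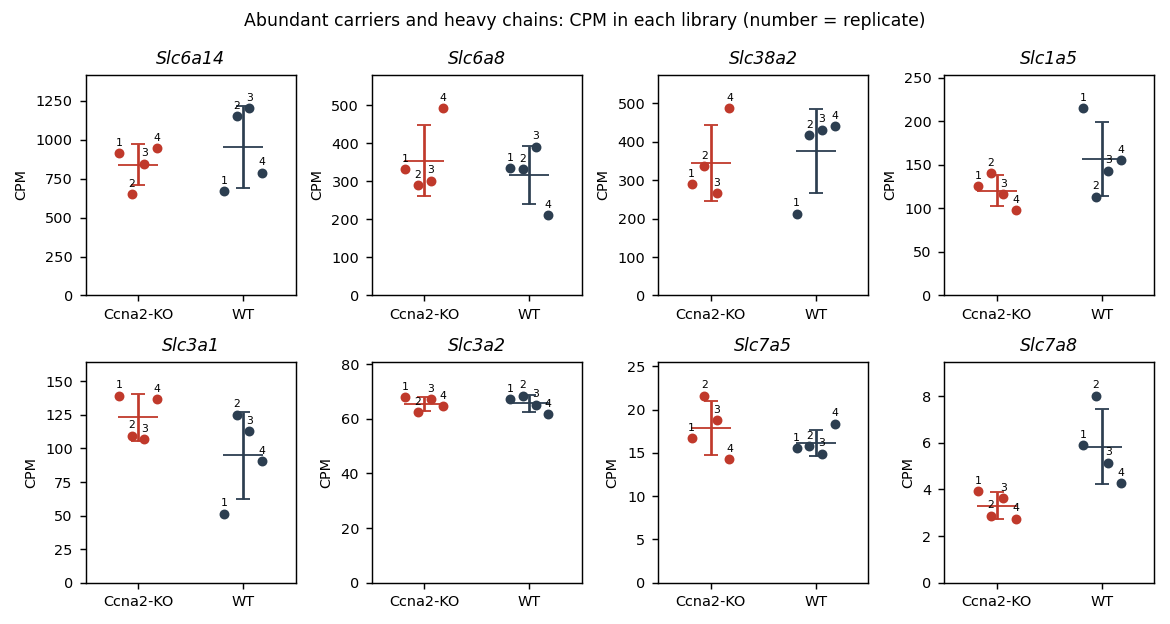
CPM (vertical axes from 0) of 8 abundant or partner transporters in the 4 libraries labelled Ccna2-KO (left in each panel) and the 4 WT libraries (right), with replicate numbers at the points and bars for the mean and SD (n = 4). The groups overlap in every panel except Slc7a8, where all 4 WT libraries lie above those labelled Ccna2-KO, and Slc3a2 is the most even.

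Levels per length placed Slc6a14 first. Only members with annotated lengths for at least 80% of their counts were ranked, a choice made after the values were seen. In CPM per kilobase, Slc6a14 averaged 245 ± 38.4 in libraries labelled Ccna2-KO and 278 ± 76.9 in WT libraries (SD, n = 4 each). Slc6a8 followed with 106 ± 28.1 in libraries labelled Ccna2-KO and 95.2 ± 22.8 in WT libraries, and Slc38a2 with 66.2 ± 20.01 in libraries labelled Ccna2-KO and 72.0 ± 26.8 in WT libraries. Slc3a1 came next at 54.2 ± 7.61 in libraries labelled Ccna2-KO and 41.9 ± 14.2 in WT libraries. The ranges of Slc6a8 and Slc38a2 overlapped, as did those of Slc38a2 and Slc3a1, whereas Slc6a14 lay above Slc6a8 in all 8 libraries. Slc3a2 had 29.2 ± 1.76 in libraries labelled Ccna2-KO and 28.6 ± 1.98 in WT libraries, and Slc1a4 20.8 ± 4.43 in libraries labelled Ccna2-KO and 11.9 ± 3.61 in WT libraries.

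In CPM not divided by length, Slc6a14, Slc6a8 and Slc38a2 together made up 55.6% to 66.9% of the counts of all 59 members. All members summed to 2290 to 2881 CPM in libraries labelled Ccna2-KO and 2191 to 3026 CPM in WT libraries, and these ranges overlap. The Slc7 family summed to 139 to 162 CPM in libraries labelled Ccna2-KO and 116 to 126 CPM in WT libraries. The Slc43 family summed to 16.7 to 28.9 CPM in libraries labelled Ccna2-KO and 10.2 to 16.1 CPM in WT libraries. In these 2 families the ranges did not overlap, and in the other 5 they did.

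The 21 members without enough counts were at most at 1.08 CPM in any library. That maximum belonged to Slc1a3, a glutamate carrier of glia, in WT replicate 1. Slc1a3 had counts of 0, 3, 1 and 0 in libraries labelled Ccna2-KO, against 31, 6, 7 and 10 in WT libraries. Every WT library was above every library labelled Ccna2-KO, but the counts were too few for the test. Slc38a11, known from enteroendocrine cells, had counts of 1, 3, 8 and 3 in libraries labelled Ccna2-KO, against 5, 3, 9 and 9 in WT libraries, with overlapping groups. Slc6a11, Slc6a16, Slc7a10, Slc7a12 and Slc36a3 had 0 counts in all 8 libraries. The other 14 held few counts. Among them were Slc1a6, Slc1a7, Slc6a3, Slc6a5, Slc6a13, Slc6a15, Slc6a17, Slc7a3, Slc7a13, Slc36a2, Slc38a4, Slc38a5 and Slc38a8, which include dopamine and glycine carriers of neurons.

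The members held 298 annotated transcripts, of which 120 were tested one by one. An adjusted p under 0.05 was reached by 0 of them, against 0.93% of all transcripts tested, and the smallest was 0.0642. At an unadjusted p under 0.05 there were 14 higher and 4 lower, against 11.5% of all transcripts tested in either direction. The smallest adjusted p belonged to Slc38a1 transcript NM_134086.4, at 18.2, 17.0, 33.2 and 19.1 CPM in libraries labelled Ccna2-KO, against 6.57, 9.32, 10.3 and 9.10 CPM in WT libraries. Its groups did not overlap (log2 fold change 1.33 ± 0.26 SE, edgeR adjusted p = 0.0642), whereas those of the Slc38a1 gene did.

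Genes that respond to amino acid shortage through the kinase GCN2 and ATF4 moved in both directions. Of 29 tested, 7 rose and 2 fell, against 6.4% higher and 5.71% lower among all genes tested. Their median log2 fold change was 0.21. Under the number set term it was -0.011, with 7 higher and 3 lower, against 9.29% and 8.9% of all genes tested. Without WT replicate 1 it was 0.39, with 13 higher and 6 lower, against 15.1% and 13.4% of all genes tested. The list summed to 2729 to 3492 CPM in libraries labelled Ccna2-KO and 3530 to 4226 CPM in WT libraries. A large part of these sums was Atf3, which fell. It averaged 1308 ± 312 CPM in libraries labelled Ccna2-KO and 2211 ± 250 CPM in WT libraries (SD, n = 4 each). The lower sum in libraries labelled Ccna2-KO therefore does not describe the list as a whole. Trib3, which restrains this response, averaged 1.09 ± 0.107 CPM in libraries labelled Ccna2-KO and 0.345 ± 0.0502 CPM in WT libraries (SD, n = 4 each; log2 fold change 1.65 ± 0.23 SE, edgeR adjusted p = 0.00277). Psat1, an enzyme of serine synthesis, averaged 17.2 ± 5.09 CPM in libraries labelled Ccna2-KO and 4.13 ± 1.89 CPM in WT libraries (log2 fold change 2.06 ± 0.33 SE, edgeR adjusted p = 0.00490). The cytokine gene Gdf15 averaged 131 ± 41.9 CPM in libraries labelled Ccna2-KO and 41.0 ± 11.4 CPM in WT libraries (log2 fold change 1.67 ± 0.26 SE, edgeR adjusted p = 0.00458). Neither Atf4 itself (log2 fold change -0.06 ± 0.12 SE, adjusted p = 0.811) nor Asns, asparagine synthetase (log2 fold change 0.65 ± 0.28 SE, adjusted p = 0.173), passed. The members that fell were Atf3 and Herpud1.

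Other genes of amino acid handling gave few calls. Of 22 tested genes in a list made mostly of other amino acid and peptide carriers, which the symbol rule left out, 0 rose and 3 fell at an adjusted p under 0.05, against 6.4% higher and 5.71% lower among all genes tested. Their median log2 fold change was -0.17. They were Slc6a20a, a proline carrier of the Slc6 family (log2 fold change -2.27 ± 0.30 SE, edgeR adjusted p = 0.00198), the mitochondrial carrier Slc25a29 (log2 fold change -0.98 ± 0.15 SE, adjusted p = 0.00478) and the peptide carrier Slc15a1 (log2 fold change -1.05 ± 0.29 SE, adjusted p = 0.0459). The Slc15a1 call was lost under the number set term (adjusted p = 0.0549) and without WT replicate 1 (adjusted p = 0.0559). Slc6a20a measured 0.371, 0.360, 0.218 and 0.431 CPM in libraries labelled Ccna2-KO, against 1.60, 1.74, 2.15 and 1.17 CPM in WT libraries, and its groups did not overlap. Among 15 accessory proteins and brush border peptidases, 2 rose and 0 fell, against 6.4% higher and 5.71% lower among all genes tested. They were Enpep, at 103 ± 23.0 CPM in libraries labelled Ccna2-KO and 22.03 ± 15.999 CPM in WT libraries (SD, n = 4 each; log2 fold change 2.23 ± 0.51 SE, edgeR adjusted p = 0.0230), and Mep1b (log2 fold change 0.70 ± 0.18 SE, adjusted p = 0.0370).

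A list on amino acid sensing by mTORC1 had 38 genes tested. Of these, 0 rose and 2 fell, against 6.4% higher and 5.71% lower among all genes tested. The median log2 fold change was -0.04. Without WT replicate 1 the list gave 4 higher and 7 lower, against 15.1% and 13.4% of all genes tested. The genes that fell were Tfeb, a lysosomal transcription factor (log2 fold change -0.81 ± 0.14 SE, edgeR adjusted p = 0.00786), and Sesn1, a leucine sensor (log2 fold change -0.48 ± 0.12 SE, adjusted p = 0.0287). Among 23 tRNA synthetase genes, 2 rose and 0 fell, Nars (log2 fold change 0.43 ± 0.09 SE, adjusted p = 0.0142) and Rars (log2 fold change 0.42 ± 0.10 SE, adjusted p = 0.0214), against 6.4% higher and 5.71% lower among all genes tested. Their median log2 fold change was 0.15, and 0.014 under the number set term; without WT replicate 1, 9 were higher and 0 lower, against 15.1% and 13.4% of all genes tested. In glutamine, glutamate and branched chain metabolism, 3 of 28 rose and 1 fell, against 6.4% higher and 5.71% lower among all genes tested. The median log2 fold change was 0.14. Under the number set term it was -0.043, with 4 higher and 4 lower, against 9.29% and 8.9% of all genes tested. Without WT replicate 1 it was 0.22, with 8 higher and 4 lower, against 15.1% and 13.4% of all genes tested. Ass1, an enzyme of arginine synthesis, averaged 29.0 ± 3.19 CPM in libraries labelled Ccna2-KO and 9.45 ± 6.33 CPM in WT libraries (SD, n = 4 each; log2 fold change 1.62 ± 0.36 SE, edgeR adjusted p = 0.0205). Got2, a mitochondrial aminotransferase, also rose (log2 fold change 0.52 ± 0.13 SE, adjusted p = 0.0356), and Glud1, glutamate dehydrogenase, fell (log2 fold change -0.44 ± 0.11 SE, adjusted p = 0.0369).

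Over the 6 lists of related genes together, 14 of 154 tested genes rose and 8 fell, against 6.4% and 5.71% of all genes tested. These counts were 37 and 22 without WT replicate 1, where 15.1% and 13.4% of all genes were called. Without Ccna2-KO replicate 3 they were 4 and 3. Calls over all genes were also fewer in that fit, at 972 against 1924 with all libraries.

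**Figure D4:**
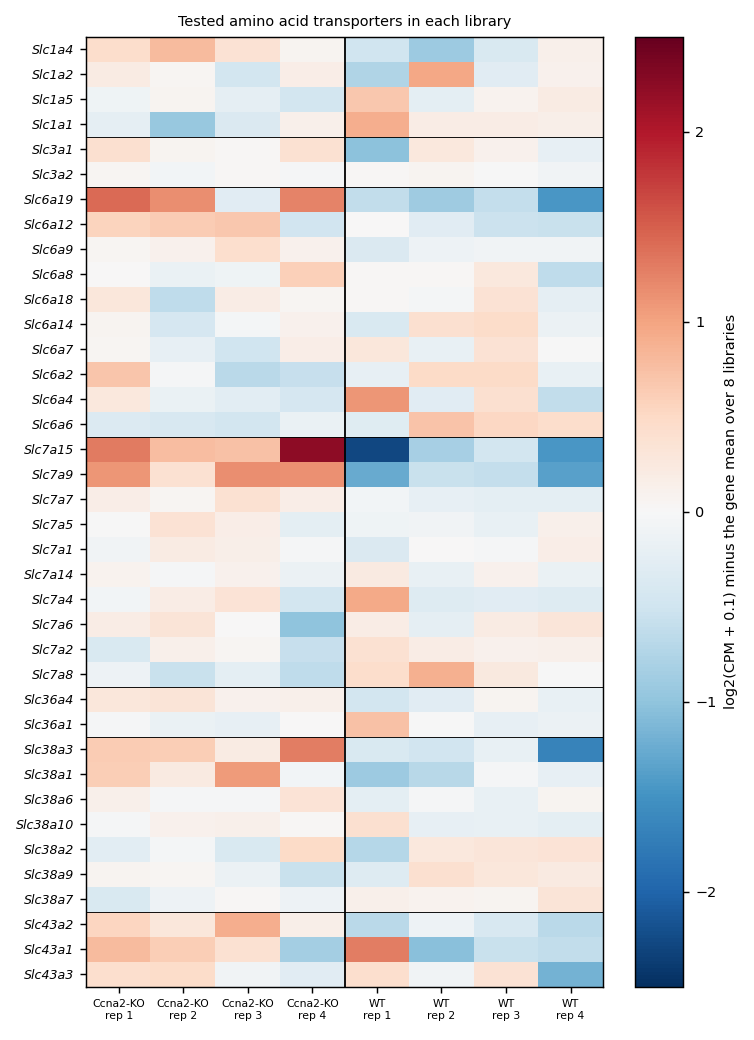
Level of each of the 38 tested transporters in each library (columns, libraries labelled Ccna2-KO on the left), as log2(CPM + 0.1) minus the mean of the gene over 8 libraries, on a colour scale from blue (low) to red (high). Slc7a15, Slc7a9 and Slc6a19 show the strongest contrast, and WT replicate 1 departs from the other WT libraries for Slc1a1, Slc7a4, Slc36a1, Slc38a2 and Slc43a1.

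Over the 18 other ways of processing, 3 passing members always passed and 5 lost the call at least once. Slc6a19 passed in 17 of 18, Slc38a3 in 10, Slc7a7 and Slc1a4 in 9 each and Slc6a6 in 8. A further 10 members that did not pass in the fit reported here passed in at least 1 of the others.

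**Figure D5:**
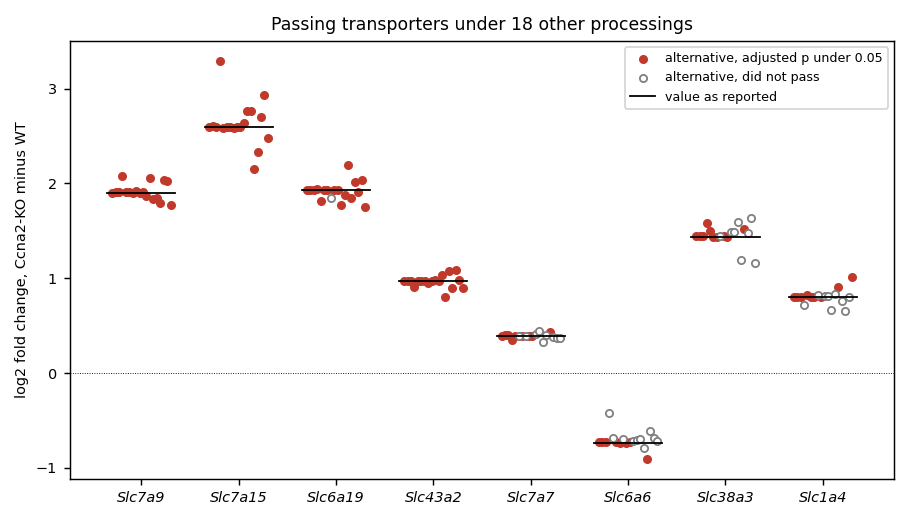
Log2 fold change (vertical axis, libraries labelled Ccna2-KO over WT libraries) of the 8 passing transporters under 18 other ways of processing the data. Filled points passed an adjusted p of 0.05, open points did not, and the black line is the value reported in the text. Slc7a9, Slc7a15 and Slc43a2 have filled points only, and no point crosses 0.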

How the data were processed

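The authors deposited estimated counts per RefSeq transcript, made with kallisto on GRCm38 (mm10) per the submitters' processing notes, with no version named there. Kallisto divides reads shared by transcripts between them, so single transcripts are less certain than gene sums. Counts were summed per symbol and rounded; 687 transcripts without a symbol (3.19% to 5.51% of counts) were left out. Genes were tested with edgeR 4.0.16 in R 4.3.3: its default low-count filter, TMM scaling and the robust quasi-likelihood F test over all 8 libraries without covariates, and Benjamini-Hochberg adjustment over 15893 genes with a threshold of 0.05. CPM use TMM-scaled library sizes, and SDs are over 4 libraries.

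The members, lists and tests were chosen with earlier results of these data known. Passing members and 14 members fixed by name were given by library, with up to 3 passing genes of each list of related genes; Slc38a1, Slc6a8, Slc36a4, Slc1a3 and single transcripts were added after their values were seen. A member with too few counts to test and a related gene are not reported here. Alternatives were other scalings and filters, DESeq2 1.42.0, limma 3.58.1 voom, non-robust estimates, a replicate block, a library number set term and leaving out each library. Scripts were checked on simulated counts. Gene positions and promoters are RefSeq's (GRCm38.p6), and lengths GENCODE's.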

Additional observations from a re-analysis of the deposited data

Results flagged for a closer look

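Among 76 combinations of a tested transporter and a group of 4 libraries, 9 held a library whose gap to its nearest neighbour, divided by the range of the group, was above Dixon's critical value for 4 samples. Chance gives this in about 1 of 20 groups. The outlying library was WT replicate 1 in 6 of the 9.

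WT replicate 1 was the highest of its group for Slc1a1 at 32.0 CPM (the others 18.8 to 19.4), Slc7a4 at 24.7 CPM (10.1 to 10.4), Slc36a1 at 56.1 CPM (29.5 to 33.4), Slc38a10 at 109.6 CPM (69.6 to 72.7) and Slc43a1 at 5.99 CPM (1.12 to 1.60). It was the lowest for Slc38a2 at 213 CPM (416 to 440). In libraries labelled Ccna2-KO, replicate 3 was the highest for Slc6a9 at 33.3 CPM (25.9 to 26.8). Replicate 2 was the lowest for Slc7a9 at 10.2 CPM (16.8 to 17.5), and replicate 4 the lowest for Slc6a12 at 0.196 CPM (0.505 to 0.562).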

How the results depend on the processing

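Against 7 transporters higher and 1 lower, the number lower was 2 with no filter on low counts, 2 with the 1 CPM filter, 3 in DESeq2, 0 in limma voom, 2 with non-robust estimates and 2 with the number set term. Leaving out single libraries gave 4 to 9 higher and 0 to 2 lower. All genes called in either direction (1924) became 1861 with no filter, 1700 with the 1 CPM filter, 1928 in limma voom and 1950 with non-robust estimates. They became 2949 in DESeq2 and 2892 with the number set term, and 972 to 4627 without single libraries. Of all genes tested, 5.71% were lower in the fit reported here and 8.9% with the number set term. The median log2 fold change of the members (0.04) was -0.0018 with unnamed transcripts in the library sizes, 0.13 with the 1 CPM filter and -0.033 to 0.10 without single libraries. Member transcripts called (0) became 1 with the 1 CPM filter, 1 with the number set term and 0 to 1 without single libraries. Genes of the related lists fell in 14 cases with the number set term; without single libraries 4 to 37 rose and 3 to 22 fell.

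Replicate numbers did not pair the libraries. Deviations from the group means of same-numbered libraries had correlations of -0.07, -0.35, -0.26 and 0.15, and no library matched its own number best. With the number as a replicate block, 3 transporters were higher and 0 lower, 987 genes were called in all, and 7 related genes rose and 5 fell.

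Sign changes were limited to members that had not passed. With the number set term, log2 fold changes were 0.28 for Slc1a2, 0.057 for Slc6a14, 0.33 for Slc38a2, -0.048 for Slc38a10, -0.46 for Slc43a1 and -0.14 for Slc43a3. In limma voom they were 0.012 for Slc1a2 and 0.016 for Slc7a4. Slc3a2 (-0.0022) gave 0.0014 with the 1 CPM filter, 0.0024 in DESeq2, 0.0020 with RLE scaling, 0.00047 with no filter, 0.0030 with upper quartile scaling and 0.034 for its most abundant transcript alone. Without single libraries, log2 fold changes ran from -0.38 to 0.32 for Slc1a2, -0.033 to 0.024 for Slc3a2, -0.040 to 0.27 for Slc6a8, -0.16 to 0.19 for Slc6a18, -0.22 to 0.35 for Slc7a4, -0.31 to 0.048 for Slc7a6, -0.072 to 0.081 for Slc7a14, -0.34 to 0.028 for Slc36a1 and -0.10 to 0.36 for Slc43a3. Over all tested members and alternatives, 585 values kept direction and call, 37 lost and 20 gained the call and 29 changed sign; the causes were not tested.

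Each transcript was tested alone, but only the most abundant per gene, a choice made after the values were seen, was set against the gene. Among the members not given by library, it had the other sign for Slc6a7 (0.24), Slc7a6 (0.064), Slc38a10 (-0.34) and Slc43a3 (-1.49). Other transcripts of Slc6a6 and Slc7a7 pointed the other way. Members under 1 CPM rest on few counts.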

Other observations

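Levels and directions are given here for members that lie close together on a chromosome. These groups were picked out after the values were seen, and no test was made. On chromosome 2, Slc43a1 and Slc43a3 lie between 84838855 and 84958509, and neither passed. Slc43a1 averaged 3.10 CPM in libraries labelled Ccna2-KO and 2.56 CPM in WT libraries, and Slc43a3 1.76 CPM in libraries labelled Ccna2-KO and 1.57 CPM in WT libraries. Slc36a1, Slc36a2 and Slc36a3 lie in one stretch of chromosome 11 (55124815 to 55236330). Slc36a1 averaged 31.8 CPM in libraries labelled Ccna2-KO and 37.4 CPM in WT libraries, whereas Slc36a2 held 1 count in each group and Slc36a3 held 0. Slc7a9 rose, while Slc7a10, also on chromosome 7 (35186095 to 35201116), had 0 counts. Slc7a7 and Slc7a8 share chromosome 14 (54369442 to 54781886 from the start of the first to the end of the second) and had log2 fold changes of 0.39 and -0.82.

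On chromosome 13, Slc6a3, Slc6a18 and Slc6a19 lie between 73536128 and 73700780. Their summed counts were 4, 41 and 760 in libraries labelled Ccna2-KO, against 2, 42 and 199 in WT libraries. On chromosome 6, Slc6a12 and Slc6a13 are neighbours (121300288 to 121365773). They held 56 and 1 counts in libraries labelled Ccna2-KO, against 27 and 3 in WT libraries.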
